A study of Mus musculus with 2 samples.

Results

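The Zic genes encode zinc-finger transcription factors, and 4 of them were followed here in mouse heart against mouse embryonic fibroblasts (MEF), connective-tissue cells grown in culture from embryos. Every probe whose platform gene symbol was Zic1, Zic2, Zic4 or Zic5 was taken, which gave 6 of the 41174 probes and 4 of the 19532 named genes on the array. The genes were picked with their ratios in this comparison already known, so their own values are a description and no test is given for them.

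The study held 2 two-colour Agilent arrays, one for heart RNA numbered 1 and one for heart RNA numbered 2. On both, heart RNA carried Cy3 and MEF RNA carried Cy5. Per the labels, the heart samples were untreated and were not cultured, whereas the MEFs were kept in DMEM with fetal bovine serum and non-essential amino acids. The labels give no strain, age or sex of the animals and no passage of the MEFs, nor whether hearts or MEF RNA were separate preparations, so the spread between the arrays may be technical.

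Positive values are read as heart over MEF. This direction is likely rather than stated: the titles and the design text set heart against MEF, and the cardiomyocyte genes are high when the values are read that way. Of 12 cardiomyocyte markers 12 were called higher in heart, from Actc1 at 3.36 on the log2 scale up to Actn2 (7.10), Tnni3 (8.13), Mybpc3 (9.66) and Pln (11.24). Of 12 fibroblast markers 12 were called lower, from Pdgfra at -0.65 down to Cdh11 (-4.42), Col1a2 (-6.24), Fn1 (-6.32) and Col1a1 (-7.38). Read this way, the lists go with the labels of both channels, and since the direction leans on the cardiomyocyte genes their sign is not independent evidence. A call means a Benjamini-Hochberg adjusted p under 0.05 in limma's test of the mean log2 ratio of the 2 arrays against 0, fitted over all named genes. This rule called 73.1% of all genes, 33.8% higher and 39.3% lower in heart, so being called sets no gene apart.

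Zic proteins are vertebrate relatives of the fly pair-rule factor odd-paired. They bind DNA through a run of C2H2 zinc fingers that resembles that of the Gli proteins, the transcription factors at the end of the hedgehog pathway, and they can act together with Gli proteins. In mouse embryos they are known from the dorsal neural tube, the neural crest and the somites, the blocks of mesoderm that give rise to trunk muscle, vertebrae and dermis. Zic1 is also widely used as a marker of classical brown fat. The genes lie in neighbouring pairs, Zic1 beside Zic4 and Zic5 beside Zic2.

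The promoter windows of the members are described as features that were not used to choose them. Whether they bear on the ratios was not tested. RefSeq windows of assembly GRCm38.p6, running from 250 bases before to 50 bases after the annotated start, were at hand for 3 of the 4 genes, and each is printed 5′ to 3′ on the strand of its gene with CpG dinucleotides in capitals. The Zic1 window is chr9:91365719-91366018 on the minus strand, the Zic4 window chr9:91368722-91369021 on the plus strand and the Zic5 window chr14:122465609-122465908 on the minus strand.
Zic1: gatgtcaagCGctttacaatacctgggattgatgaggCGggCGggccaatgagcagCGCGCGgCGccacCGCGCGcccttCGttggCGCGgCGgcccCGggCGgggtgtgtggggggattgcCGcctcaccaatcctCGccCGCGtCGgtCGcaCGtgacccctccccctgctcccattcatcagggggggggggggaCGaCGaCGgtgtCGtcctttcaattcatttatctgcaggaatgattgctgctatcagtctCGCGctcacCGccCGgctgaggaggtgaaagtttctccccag
Zic4: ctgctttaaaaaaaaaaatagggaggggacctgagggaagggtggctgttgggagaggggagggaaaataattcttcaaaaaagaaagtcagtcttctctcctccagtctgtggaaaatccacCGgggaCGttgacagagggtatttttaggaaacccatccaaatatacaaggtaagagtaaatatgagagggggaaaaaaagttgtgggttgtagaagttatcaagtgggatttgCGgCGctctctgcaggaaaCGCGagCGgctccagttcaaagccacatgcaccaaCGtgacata
Zic5: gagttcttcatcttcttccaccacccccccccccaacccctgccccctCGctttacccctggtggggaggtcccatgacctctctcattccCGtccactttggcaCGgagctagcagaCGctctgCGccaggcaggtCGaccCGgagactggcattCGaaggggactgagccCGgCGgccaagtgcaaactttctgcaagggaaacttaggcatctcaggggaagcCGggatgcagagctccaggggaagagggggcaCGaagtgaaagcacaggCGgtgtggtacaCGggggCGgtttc
The Zic1 and Zic4 windows lie head to head, with transcription running away from each other. The Zic1 window was the richest in CpG of the 3. It held 31 CpG dinucleotides and 65.3% G or C, and 89.4% of the 32851 RefSeq windows of this length held fewer CpG dinucleotides. The Zic5 window held 15 CpG at 62.7% G or C, and the Zic4 window 8 CpG at 46% G or C, close to the median of 7 CpG and below the median of 52.7% G or C over all windows.

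Short motifs were searched on both strands of the 3 windows, and positions give the first base of a match, counted from the annotated start. The GC box GGGCGG, bound by Sp-type factors and present in 35.7% of all windows, was found 3 times in the Zic1 window, at -212, -152 and 17, and once in the Zic5 window, at 41. The CCAAT box CCAAT, present in 37.4% of windows, was found in the Zic1 window at -205 and -121. The E-box CACGTG, present in 7.15% of windows, was found in the Zic1 window at -98. None of these matches overlapped. The letters CAGCAGG, a core of Zic binding motifs found in 10.5% of windows, TGGGTGG, a core of Gli motifs found in 9.3%, and TATAAA, found in 13.6%, were not in these 3 windows. A match is a description of the letters and not of binding.

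Zic1, a factor of dorsal neural tube and somite development, had the lowest ratio of the family by a wide margin. Its probes read -8.77 and -8.20 on the heart-1 array and -9.02 and -8.19 on the heart-2 array, so both probes were far below 0 on both arrays. Averaged over its 2 probes, Zic1 stood at -8.49 on heart-1 and -8.61 on heart-2, with a mean of -8.55 ± 0.08 (SD, n = 2), or 374-fold lower in heart. That placed it at rank 3 from the lowest of the 19532 genes. In whole-tissue RNA, fewer cells that carry a transcript and less of it per cell cannot be told apart.

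The gap between the Zic1 probes was ordinary for this array and did not touch the direction. The probe means were -8.90 and -8.20, a gap of 0.70, against a median gap of 0.67 over the 5405 genes with 2 probes. By probe, the ratios were 476-fold and 294-fold lower in heart. The SD of the lower probe over the arrays was 0.17 and that of the other 0.01. Ratios alone were at hand, so whether Zic1 signal in heart exceeded background was not tested, and the size of so low a ratio depends on it.

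Zic2, which patterns the forebrain and is mutated in human holoprosencephaly, was lower in heart by a much smaller factor. Its 1 probe read -2.61 on heart-1 and -2.44 on heart-2, with a mean of -2.53 ± 0.12 (SD, n = 2), or 5.77-fold lower. Of all genes, 4.78% had a lower mean. Zic1 lay 5.88 below Zic2 on heart-1 and 6.16 below it on heart-2. Both genes were picked with these ratios known, so this gap is a description and was not tested.

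Zic4, the neighbour of Zic1, was read differently by its 2 probes. The probe annotated to a RefSeq transcript of Zic4 read -2.89 on heart-1 and -2.53 on heart-2, with a mean of -2.71 ± 0.25 (SD, n = 2), or 6.54-fold lower in heart. The other probe, annotated to a different Zic4 sequence record, read -0.15 and -0.06, with a mean of -0.10 ± 0.06 (SD, n = 2). The first probe was thus low on both arrays and the second near 0 on both.

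Averaged as the other genes were, Zic4 stood at -1.52 on heart-1 and -1.30 on heart-2, a mean of -1.41 ± 0.15 (SD, n = 2) or 2.65-fold lower, a value that neither probe showed. The probes were 2.74 apart on heart-1 and 2.47 apart on heart-2, so the gap was of like size on both arrays. The gap of the means, 2.61, was wide for this array, where the median over the 5405 genes with 2 probes was 0.67 and 8.1% had a wider one. The probes' own sequences were not used here, and which of them reports Zic4 RNA better was not tested.

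Zic5, which is expressed in dorsal neural tissue and takes part in neural crest development, gave no usable ratio. Its 1 probe read 0.16 on heart-1 and -0.13 on heart-2, with opposite signs, and a mean of 0.01 ± 0.21 (SD, n = 2). Both values fell inside a narrow band in which each array piled up near-constant values. The band ran from 0.12 to 0.20 on heart-1 with 5014 probes and from -0.20 to -0.10 on heart-2 with 5544, where bins of width 0.02 held over 2 times the median bin. On both arrays at once, 3333 probes (8.09%) lay inside it, and 784 genes had every probe there. The near-zero Zic4 probe lay outside the band on both arrays. A value in the band shows neither a difference nor equal amounts of Zic5 RNA.

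**Figure D1:**
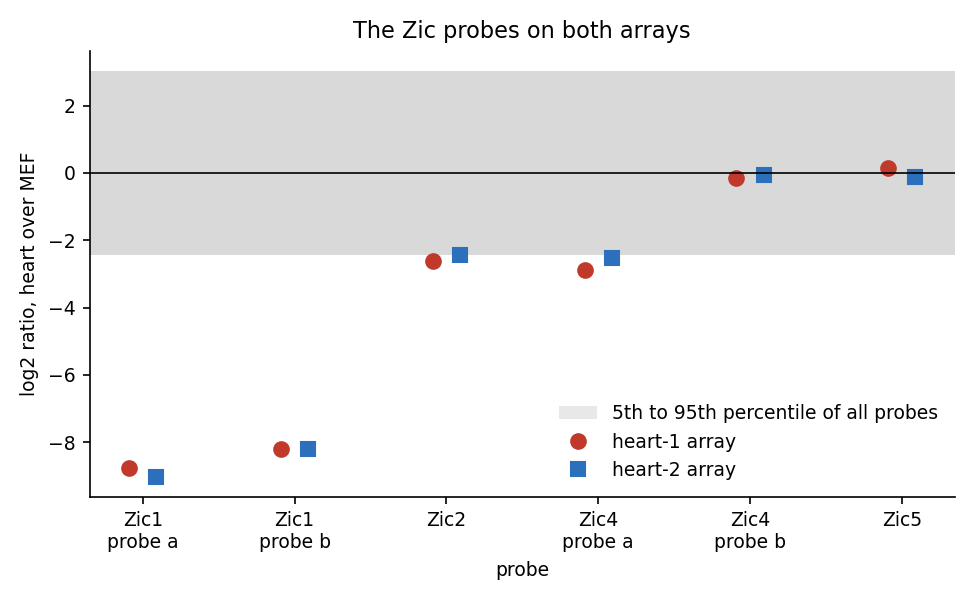
The log2 ratio of heart over MEF (vertical axis) is plotted for each of the 6 Zic probes (horizontal axis), with a circle for the heart-1 array and a square for the heart-2 array. Grey marks the span from percentile 5 to percentile 95 of all probes, -2.43 to 3.02 on heart-1 and -2.43 to 3.03 on heart-2. Both Zic1 probes sit at or below -8.19, Zic2 and Zic4 probe a lie near the lower edge of the grey span, and Zic4 probe b and Zic5 lie near 0.

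**Figure D2:**
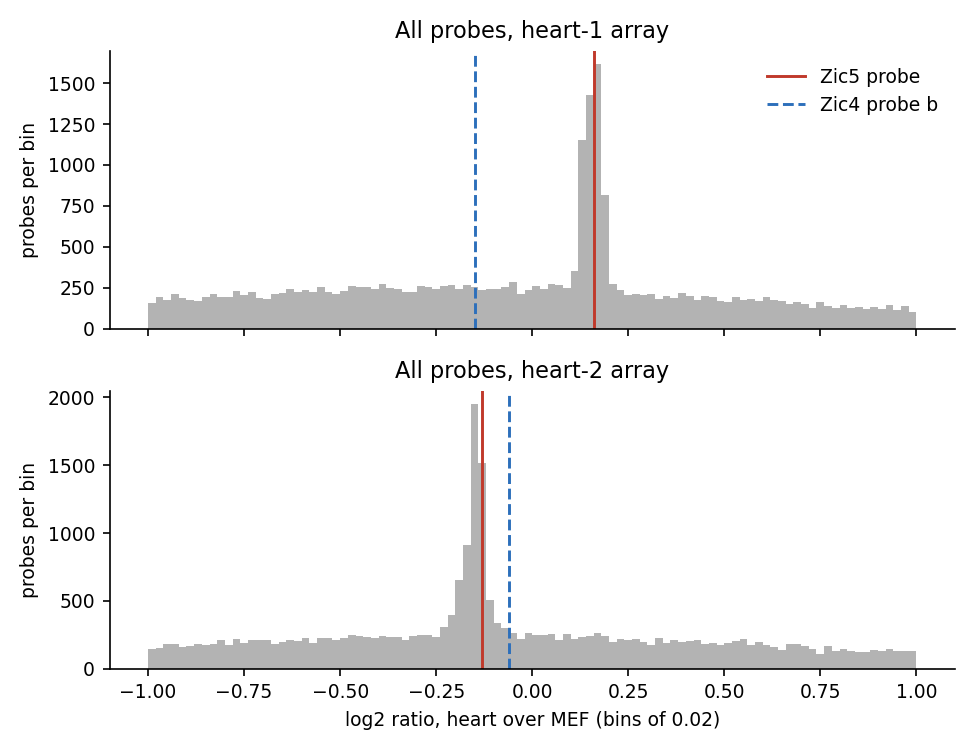
The number of probes per bin of 0.02 (vertical axis) is plotted against the log2 ratio of heart over MEF (horizontal axis, from -1 to 1) for each array, with the Zic5 probe as a solid line and the near-zero Zic4 probe (probe b) as a dashed line. The Zic5 line stands in the spike at 0.16 on heart-1 and at -0.13 on heart-2, and the Zic4 line stands beside it at -0.15 and -0.06.

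By gene, the order of the mean log2 ratios from the lowest was Zic1, Zic2 and Zic4. Zic5 was left out of this order because its value lay in the near-constant band. By probe, not every step of that order was larger than the spread between arrays. The Zic2 probe, at -2.61 and -2.44, and the lower Zic4 probe, at -2.89 and -2.53, overlapped. The probes outside the band fell into sets that stayed apart from one another on both arrays. These were the Zic1 probes, the Zic2 probe with the lower Zic4 probe, and the other Zic4 probe at -0.15 and -0.06. As genes, 3 of 4 were at least 2-fold lower in heart on both arrays, where 18.5% of all genes were, and as probes 4 of 6, where 18.1% of all probes were. The members were chosen on this contrast, so nothing is read from these counts.

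The difference between heart-1 and heart-2 was 0.12 for Zic1, -0.17 for Zic2, -0.22 for Zic4 and 0.29 for Zic5. Over all genes the median absolute difference was 0.09, and 58.2%, 66.9%, 73.1% and 80.3% of genes differed by less than Zic1, Zic2, Zic4 and Zic5. The Zic5 difference is that between the positions of the band on the arrays.

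The genes with the 2 array values closest to each member were named by their Euclidean distance over the 2 arrays, which is a thin basis for likeness. For Zic1 these were Rspo2, a secreted enhancer of Wnt signalling, at a distance of 0.38, Mogat2, an acyltransferase of triglyceride synthesis, at 0.56 and Cpa6, a carboxypeptidase, at 0.64. For Zic2 they were Zfp941, Fsip1 and Armh1, all within 0.04, and for Zic4 Acer1, an alkaline ceramidase, Flna, the actin cross-linker filamin A, and Wdr60, a dynein component of cilia, all within 0.02. For Zic5 no such genes are given, since the band fills its surroundings.

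The genes that flank the Zic pairs were not used to choose the members. No flanking gene was as low as Zic1, which holds for nearly all genes, since Zic1 had rank 3 from the lowest. Around both pairs, the 3 nearest measured genes on each side in the RefSeq gene order gave 12 genes, of which 5 were called higher in heart, 3 lower and 4 not (median log2 ratio 0.14, against -0.04 over all genes). These shares compare with 33.8% and 39.3% over all genes. Against a 2-fold change, 5 of the 12 were called, where 5797 of all 19532 genes were.

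Beside Zic1 and Zic4, the phospholipid scramblase gene Plscr2 was higher in heart, at 1.73 and 1.74 on the arrays (mean 1.73 ± 0.01, SD, n = 2; limma adjusted p = 0.00145). Its relative Plscr1 was slightly lower, at -0.40 and -0.42 (limma adjusted p = 0.00895), a call that was lost when the arrays were centred on their medians (mean -0.38, adjusted p = 0.0699). On the other side, Tbc1d2b, a Rab GTPase-activating protein, read -1.29 and -1.54 (adjusted p = 0.00548) and the metalloproteinase gene Adamts7 1.53 and 1.68 (adjusted p = 0.00265).

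The non-coding A730094K22Rik, the nearest measured gene on the Zic1 side, read -1.42 on heart-1 and -0.11 on heart-2 and was not called (adjusted p = 0.243). The arrays thus differed by 1.31 for this gene, more than for 99.1% of genes. The value of 1700057G04Rik lay in the near-constant band on both arrays.

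Beside Zic5 and Zic2, metabolic genes stood higher in heart. Pcca, a subunit of mitochondrial propionyl-CoA carboxylase and the first measured gene past Zic2, read 2.06 and 2.10 (mean 2.08 ± 0.03, SD, n = 2; limma adjusted p = 0.00139). Zic2 and Pcca thus lay next to each other among measured genes with ratios of opposite sign on both arrays. Clybl, a mitochondrial lyase gene on the Zic5 side, read 1.99 and 2.02 (adjusted p = 0.00141). Ggact, which acts on gamma-glutamylamines, was higher at 0.60 and 0.58, and Tmtc4, an endoplasmic reticulum mannosyltransferase, was 2.80-fold lower. The non-coding Gm5089 (0.12 and 0.41) and 1700108J01Rik (0.13 and -0.21) were not called.

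**Figure D3:**
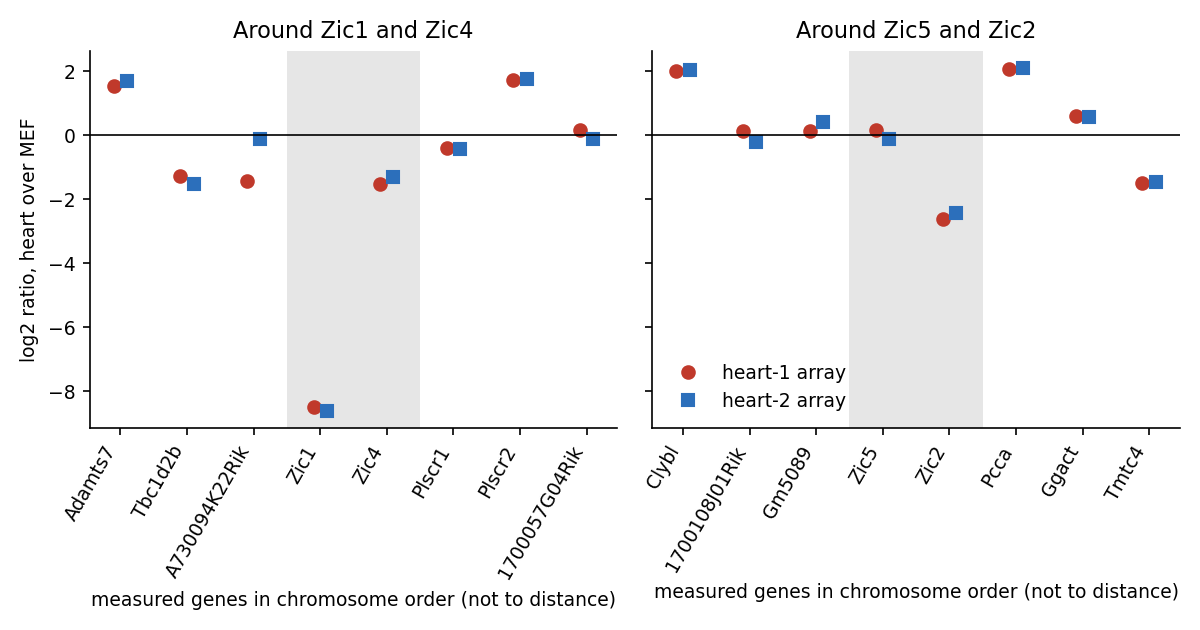
The log2 ratio of heart over MEF (vertical axis) is plotted for the measured genes around each Zic pair in chromosome order (horizontal axis, not to distance), with circles for heart-1, squares for heart-2 and the Zic genes on grey. Zic1 at -8.49 and -8.61 lies far below its neighbours, and Zic2 at -2.61 and -2.44 lies beside Pcca at 2.06 and 2.10.

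Of the 6 Gli and Glis genes, relatives of the Zic family by their zinc fingers, 5 were called lower in heart and 1 higher (median -1.99, against -0.04 over all genes), where 39.3% of all genes were called lower and 33.8% higher. Gli3, which acts mainly as the repressor of hedgehog targets, read -3.02 and -3.07, and its 2 probes had means of -3.66 and -2.43. Gli2, the main activator, read -1.95 and -1.82, with probe means of -3.22 and -0.55, a spread like that of the Zic4 probes. Both genes were low on both arrays (limma adjusted p = 0.00136 and 0.00199).

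Glis1 (-3.13 and -2.98), Glis2 (-2.03 and -2.17) and Glis3 (-1.28 and -1.51) were also called lower, with limma adjusted p between 0.00145 and 0.00488. Gli1, a target of the hedgehog pathway itself and often used as its readout, read 0.21 and 0.24 (limma adjusted p = 0.0273). When the arrays were centred on their medians the mean went from 0.23 to 0.26 but the call was lost (adjusted p = 0.223). The Zic2 ratio lay within the range of these 6 genes. Zic1 lay below all 6 on both arrays, as it did below nearly all genes.

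Of 13 measured genes of the hedgehog pathway upstream of Gli, 9 were called lower in heart, 1 higher and 3 not (median -0.61), where 39.3% of all genes were called lower and 33.8% higher. Against a 2-fold change (limma's treat), 3 of the 13 were called, where 5797 of all 19532 genes were. The co-receptor Cdon read -3.06 and -3.02 and the co-receptor Gas1 -1.67 and -1.59, both called lower. Smo, the signal transducer, was called lower at -1.12 and -1.36, but its 3 probes ran from -2.61 to 0.01 and 1 of them lay in the near-constant band. Probe means also ran wide for Hhat (-2.49 to 1.90), Sufu (-1.51 to 0.78), Hhip (-2.40 to 0.01) and Boc (-2.91 to 0.01), all called lower. The Hhat call was lost when the arrays were centred on their medians (limma adjusted p = 0.221). With the median of probes, the Boc call was lost (limma adjusted p = 0.221). The ligand Dhh was higher, at 1.62 on both arrays (limma adjusted p = 0.00153), while the ligand Shh lay in the band. The receptor and pathway target Ptch1 was not called, at -0.10 and -0.05, but its 4 probes had means from -0.44 to 0.40.

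Of 17 factors that work beside Zic proteins in the dorsal neural tube and neural crest, 11 were called lower in heart, 2 higher and 4 not (median -0.95), where 39.3% of all genes were called lower and 33.8% higher. Against a 2-fold change, 8 of the 17 were called, where 5797 of all 19532 genes were. The lowest were Twist1 at -4.22 ± 0.04, Snai1 at -3.74 ± 0.07, Msx2 at -3.33 ± 0.07 and Snai2 at -2.94 ± 0.02 (SD, n = 2). All of these are also factors of mesenchymal cells at large. Pax7 (1.94 ± 0.20) and Tfap2a (0.96 ± 0.24) were called higher.

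Neural markers gave a mixed reading. Of 14 measured, 8 were called lower in heart, 2 higher and 4 not (median -0.41), against 39.3% and 33.8% over all genes. The test against a 2-fold change called 5 of the 14, where it called 5797 of all 19532 genes. Sox2, a factor of neural progenitors and pluripotent cells, read -4.31 and -4.23, and Gfap, the astrocyte filament protein, read -3.68 and -3.36 with 3 probes from -5.86 to 0.02. The neural regulator Pax6 was at -1.44 ± 0.02 and nestin, Nes, at -1.39 ± 0.00. Against these, Sox1 (0.57 ± 0.06) and Elavl4 (0.44 ± 0.18) were called higher, and the neuronal factor Neurod1 lay in the near-constant band. The 2 Elavl4 probes had means of -1.78 and 2.67, opposite in sign, so neither showed the averaged value. How far cells with neural transcripts in the MEF culture took part in the Zic ratios was not tested.

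Of 16 measured somite and dermomyotome factors, 9 were called lower in heart, 5 higher and 2 not (median -1.48), where 39.3% of all genes were called lower and 33.8% higher. Pax9, a factor of the sclerotome, read -3.38 and -3.41, and the somite factor Meox1 was at -2.19 ± 0.04. Myf5, a muscle gene that Zic proteins can activate with Gli in mouse somites, lay in the near-constant band at 0.17 and -0.15. The genes called higher were led by Tcf15 (5.92 and 6.07 on the arrays), by Mesp2 (mean 3.31 ± 0.03) and by Meox2 (mean 3.12 ± 0.22). Tcf15 and Meox2 are also known from the endothelium of the heart.

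Of 10 genes of meningeal fibroblasts, cells in which Zic1 is known to be expressed, 4 were called lower in heart, 4 higher and 2 not (median -0.11). These shares were close to those over all genes (39.3% lower, 33.8% higher). The test against a 2-fold change called 5 of the 10, where it called 5797 of all 19532 genes. Foxd1 read -6.40 and -7.68, Crabp2 -4.97 and -5.30, and Foxc2 -2.89 on both arrays, whereas Ptgds, a prostaglandin D synthase, was higher at 5.96 and 6.07.

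Of 10 brown fat genes, 6 were called higher in heart, 2 lower and 2 not (median 0.88), where 33.8% of all genes were called higher and 39.3% lower. Against a 2-fold change, 5 of the 10 were called, where 5797 of all 19532 genes were. Cox8b (8.39 ± 0.11), Cidea (6.38 ± 0.13) and Ppargc1a (4.41 ± 0.07) were the highest. Cox8b and Ppargc1a are known from heart muscle as well. Ucp1, the uncoupling protein that defines brown fat, read 2.21 and 1.25 and was called higher (limma adjusted p = 0.0358). Its arrays differed by more than those of 97.6% of genes. Lhx8, a homeobox gene used with Zic1 as a brown fat marker, went with Zic1 at -4.21 and -4.54 (limma adjusted p = 0.00182), as did Ebf2 with a small ratio of -0.33 ± 0.02, a call lost when the arrays were centred (mean -0.29, adjusted p = 0.165).

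**Figure D4:**
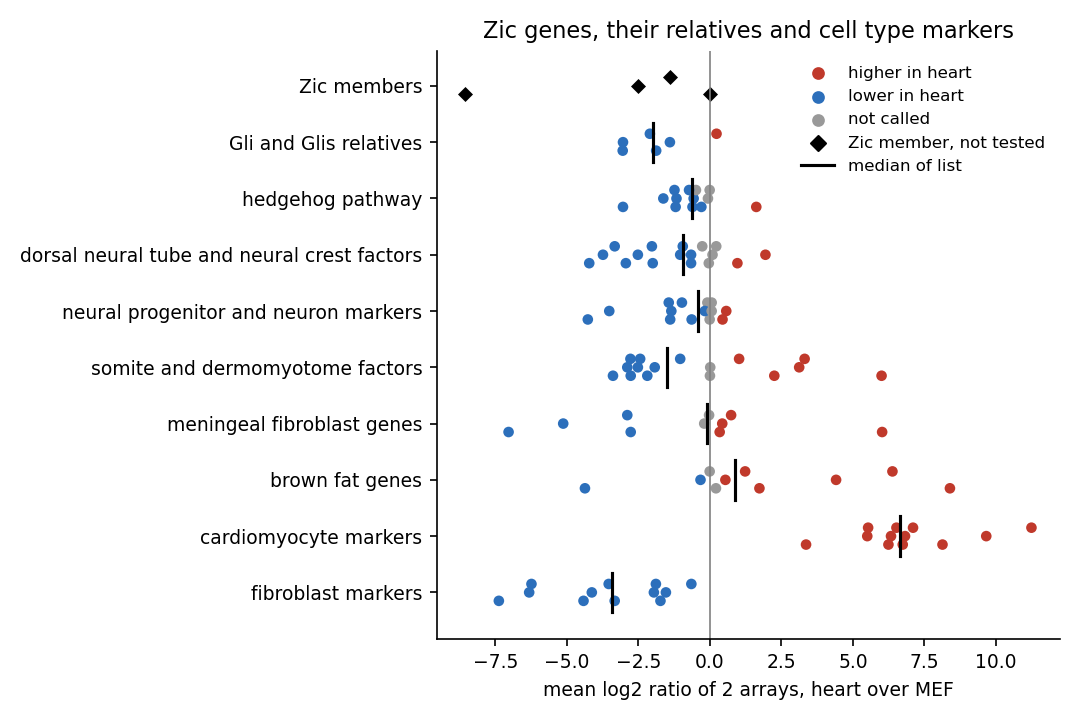
The mean log2 ratio of the 2 arrays, heart over MEF (horizontal axis), is plotted for each measured gene of each list (rows), in red where called higher in heart, blue where called lower and grey where not called. Diamonds are the 4 Zic genes, which were not tested, and a black bar marks each list's median, from -3.43 for fibroblast markers to 6.63 for cardiomyocyte markers.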

How the data were processed

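The values the authors deposited, 1 for each probe on each array, were read here as log2 ratios of heart to MEF signal. Agilent Feature Extraction is the tool named in the submitters' processing notes; what else was done before deposit is not given in the sources used here. Neither log base nor direction is stated. The largest absolute value, 11.62, is too large for a ratio of 16-bit signals in another usual base. Array medians were 0.07 and -0.14, so the values were not median-centred. No dye swap was made, so probe-specific dye bias stays in each ratio.

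The platform annotation gave 32664 probes 1 gene symbol, 45 several and 8465 none. Probes of a gene were averaged. Each gene's mean ratio was compared with 0 in limma 3.58.1, run under R 4.3.3 (eBayes, 1 residual degree of freedom, 1.25 prior degrees of freedom). The fit was also run on simulated data in which 19332 of 19532 genes were unchanged. It called 6 of these, 0 of 50 genes with an absolute log2 ratio of 1 and 32 of 50 with 2. At 4 it called 44 of 50 and at 8 it called 46 of 50. Far more genes were called in the real data. The simulation thus gives neither the error rate of the calls here nor the share of true differences they find. The number of arrays limits precision, and the spread between MEF cultures could not be estimated, since MEF RNA was the reference on both arrays. Members and lists were chosen with earlier results of these data known. Genes named are the members, the Gli and Glis genes, the flanking genes, the nearest genes and, per list, the 4 largest called ratios and up to 2 against the majority. Others, named after their values were seen, are Shh, Ptch1, Hhat, Sufu, Hhip, Boc, Neurod1, Meox1, Myf5, Ucp1, Actc1, Pdgfra and Prrx1. Alternatives were median centring, quantile normalization, other probe summaries, leaving out near-constant probes, a robust prior, treat and single arrays.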

Additional observations from a re-analysis of the deposited data

How the results depend on the processing

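The Zic ratios moved by less than the SD between arrays under median centring, quantile normalization, the median of probes and removal of near-constant probes, where Zic5 had no probe left. With the probe of the largest absolute mean in place of the average, Zic1 moved to -8.90 and Zic4 to -2.71, by construction. On single arrays Zic1 ran from -8.61 to -8.49, Zic2 from -2.61 to -2.44, Zic4 from -1.52 to -1.30 and Zic5 from -0.13 to 0.16; no test is possible with 1 array. Against a 2-fold change (limma's treat), 5797 genes were called in place of 14283, and fewer members of several lists: 3 of the 10 hedgehog genes, 8 of the 13 neural crest factors, 5 of the 10 neural markers, 5 of the 8 meningeal genes, 5 of the 8 brown fat genes and 5 of the 8 flanking genes called against 0. Under the other settings these counts stayed within 1.5 times. The fibroblast marker Prrx1 turned from -1.54 to 4.08 when its probe of the largest absolute mean stood for it. Median centring moved the median gene by 0.036. Heart and MEF RNA were paired on each array, and the test of the log2 ratio against 0 uses that pairing. No other pairing was possible because there is only 1 group. Signal over background could not be judged from ratios.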
